A study of Mus musculus with 12 samples.

Results

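Actin is the protein of the thin filament, along which myosin pulls, and mammals carry 6 genes for it. *Acta1* encodes skeletal α-actin and *Actc1* cardiac α-actin, the pair used in sarcomeres. *Acta2* and *Actg2* encode the α- and γ-actins of smooth muscle. *Actb* and *Actg1* encode the β- and γ-actins of the cytoplasm, found in nearly every cell. Fetal skeletal muscle is known to use cardiac α-actin next to skeletal α-actin, and skeletal α-actin takes over as fibres mature. Many actin genes are driven by serum response factor (SRF), which binds the CArG box of their promoters. SRF is helped by myocardin-related coactivators (*Mrtfa*, *Mrtfb*), which are released when free actin monomers are used up.

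These 6 genes were followed by name through the 55450 genes of the count table, and all 6 had enough reads to be tested among 19276 genes. The RNA came from the tibialis anterior (TA), a fast hindlimb muscle, of wild-type mice of the 129SvPas strain (129Pas in the sample labels). There were 4 mice before birth at E18.5, a late fetal stage, 4 at 2 weeks (wks) and 4 at 7 wks, 12 libraries in all, with no treatment and no genetic change in any group. Each library is a piece of whole muscle, so fewer cells of a type and less RNA per cell cannot be told apart. The sequenced comparison asks how expression changes from before birth to 2 wks and from 2 to 7 wks.

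Levels are in CPM, counts scaled to the depth of the library, with TMM (trimmed mean) factors, and values of single mice are given in the order of their replicate numbers 1 to 4. A change was called at an adjusted p under 0.05, where p came from the quasi-likelihood F-test of edgeR and the Benjamini-Hochberg method was applied over all 19276 genes. Library totals ran from 63018968 to 123449246 counts. The TMM factors lay between 1.62 and 1.77 for the fetal libraries, between 0.810 and 0.946 for those of 2 wks and between 0.667 and 0.699 for those of 7 wks. Scaling to the plain total instead moved the median log2 change of all genes by -0.93 to 2 wks and by -0.35 afterwards, so directions that turn with the scaling are named where they occur. Shares of all genes are given for TMM only. Counts of calls on total counts or under any other alternative therefore stand without such a share and are not a result about the members or a list. The 8 markers of skeletal fibres summed to 8341 to 14057 CPM at E18.5 and to 109609 to 132684 CPM at 2 wks. All 8 were called higher at 2 wks, beside 31.5% of all genes tested.

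The 6 coding sequences are close relatives. *Acta1* and *Actc1* shared 86.3% of the 1131 aligned coding bases, and *Actb* and *Actg1* shared 88.6% of 1125. The longest stretch that any pair of members had in common was 77 bases, between *Acta1* and *Actb*, which is shorter than the 100-base reads. No 100-base window of any member's main transcript occurred in another member, so whole reads can tell the members apart. The first 60 coding bases of both sarcomeric genes, from GENCODE vM39, show how the copies differ, with capitals at the 9 bases where they disagree.
Acta1: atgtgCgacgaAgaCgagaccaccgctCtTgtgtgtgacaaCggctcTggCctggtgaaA
Actc1: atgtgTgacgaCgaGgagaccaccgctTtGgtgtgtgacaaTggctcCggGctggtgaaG

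Reads of *Actg1* were less safe. Of its 2102 windows of 100 bases, 1623 (77.2%) also occurred in annotated genes elsewhere in the genome, among them the pseudogene *Actg-ps1*, against 0 of 1549 for *Acta1*, 0 of 3546 for *Actc1* and 20 of 1821 for *Actb*. How reads that match several places were counted is not given in the sources used here, so *Actg1* levels are uncertain. *Acta2* shared 202 of 2689 windows with the overlapping gene *Stambpl1*, which never held more than 1.59% of the *Acta2* count.

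RefSeq (GRCm38.p6) lists promoters for 4 of the 6 members. The 250 bases before the start of both sarcomeric genes are shown because the balance of these genes changed most. Capitals mark CArG boxes, which are CC, 6 bases that are A or T, and GG, or the same with at most 1 C or G among the 6, a looser form that was added after the data had been seen.
Acta1, chr8:123894776-123895025, minus strand: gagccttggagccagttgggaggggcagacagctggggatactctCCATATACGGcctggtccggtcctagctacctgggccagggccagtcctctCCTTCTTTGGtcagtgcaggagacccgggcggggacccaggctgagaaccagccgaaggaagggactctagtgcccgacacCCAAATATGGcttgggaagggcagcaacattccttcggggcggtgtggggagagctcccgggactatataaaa
Actc1, chr2:114052876-114053125, minus strand: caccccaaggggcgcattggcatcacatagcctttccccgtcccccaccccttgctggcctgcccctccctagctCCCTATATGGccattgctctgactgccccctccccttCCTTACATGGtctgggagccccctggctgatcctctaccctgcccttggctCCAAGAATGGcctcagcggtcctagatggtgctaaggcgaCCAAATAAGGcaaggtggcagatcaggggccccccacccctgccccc
*Acta1* held an exact CArG box whose first base lies 73 bases before the start and *Actc1* had such a box at 47 bases. Counting the looser form, *Acta1* held 3 boxes and *Actc1* held 4. Around the boxes of the other promoters listed, *Actg1* had an exact box at 90 bases, while *Acta2* had only looser ones, at 84 and 34 bases.
Acta2, chr19:34255383-34255472, minus strand: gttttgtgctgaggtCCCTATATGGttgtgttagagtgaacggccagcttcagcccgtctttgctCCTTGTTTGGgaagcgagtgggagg
Actg1, chr11:120348561-120348600, minus strand: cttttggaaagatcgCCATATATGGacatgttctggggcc
An exact box occurred in 1.63% of all 32851 promoter windows of 300 bases and the looser form in 9.98%, on either strand. The MCAT motif (CATTCC), bound by TEAD factors, was found at 46 bases in *Acta1* and on the reverse strand in *Acta2*, and in 14.7% of all windows. E-boxes (CANNTG), which myogenic factors can bind, were in all 4 windows and in 72.3% of all windows. The letters TATAAA occurred in *Acta1* and, after the listed start, in *Actc1*, and in 13.6% of all windows. A match describes letters and does not show that a factor binds.

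*Acta1* was the member that changed most. On the minus strand of chromosome 8 (123891758 to 123894775, GRCm38.p6), it had 1811, 6942, 2630 and 3163 CPM at E18.5. At 2 wks it had 42300, 42480, 50889 and 61450 CPM, and at 7 wks 31847, 36771, 55511 and 40021 CPM. Every mouse after birth stood above every fetus, whereas the mice of 2 and 7 wks overlapped. *Acta1* rose 13.6-fold to 2 wks (log2 3.76, SE 0.41, adjusted p = 4.12e-06), and its change after 2 wks was not called (log2 -0.26, SE 0.36, adjusted p = 0.624). The size of the rise depended on the scaling, with log2 2.82 on total counts and 2.84 once the trend with GC content was removed. *Acta1* alone took at most 1.15% of all counts in a fetus and 3.92% to 4.98% in a mouse of 2 wks, and it was the most or second most abundant gene in every library of 2 wks.

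*Actc1*, on chromosome 2 (114047282 to 114052875, minus strand), did not fall as *Acta1* rose. It had 3484, 4206, 2501 and 2926 CPM at E18.5 and 9381, 9337, 7111 and 2668 CPM at 2 wks. At 7 wks the values were 3612, 1873, 683 and 901 CPM. Of the 4 mice of 2 wks, 3 lay above every fetus and replicate 4 lay within the fetal range. The difference between E18.5 and 2 wks just missed the threshold (2.17-fold higher, log2 1.12, SE 0.48, adjusted p = 0.0544). It was called without 2 wks replicate 4 (log2 1.40, adjusted p = 0.0171), without 7 wks replicate 1, 3 or 4 (log2 1.13 each, adjusted p = 0.0228, 0.0365 and 0.0484), and by DESeq2 (log2 1.07, adjusted p = 0.0303). On total counts it was small (log2 0.23, adjusted p = 0.679). After 2 wks *Actc1* fell 4.03-fold (log2 -2.01, SE 0.49, adjusted p = 0.00907), and the step to 2 wks differed from the step after it (log2 difference 3.13, SE 0.80, adjusted p = 0.00817). Without 7 wks replicate 1, the mouse of that age with the most *Actc1*, the fall was larger (log2 -2.63) and so was the difference of steps (log2 3.76), which was 3.69 without 2 wks replicate 4. From E18.5 to 7 wks the change was not called (log2 -0.89, SE 0.48, adjusted p = 0.11), but it was without 7 wks replicate 1 (log2 -1.50, adjusted p = 0.00822) and on total counts (log2 -2.15, adjusted p = 0.00122).

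**Figure D1:**
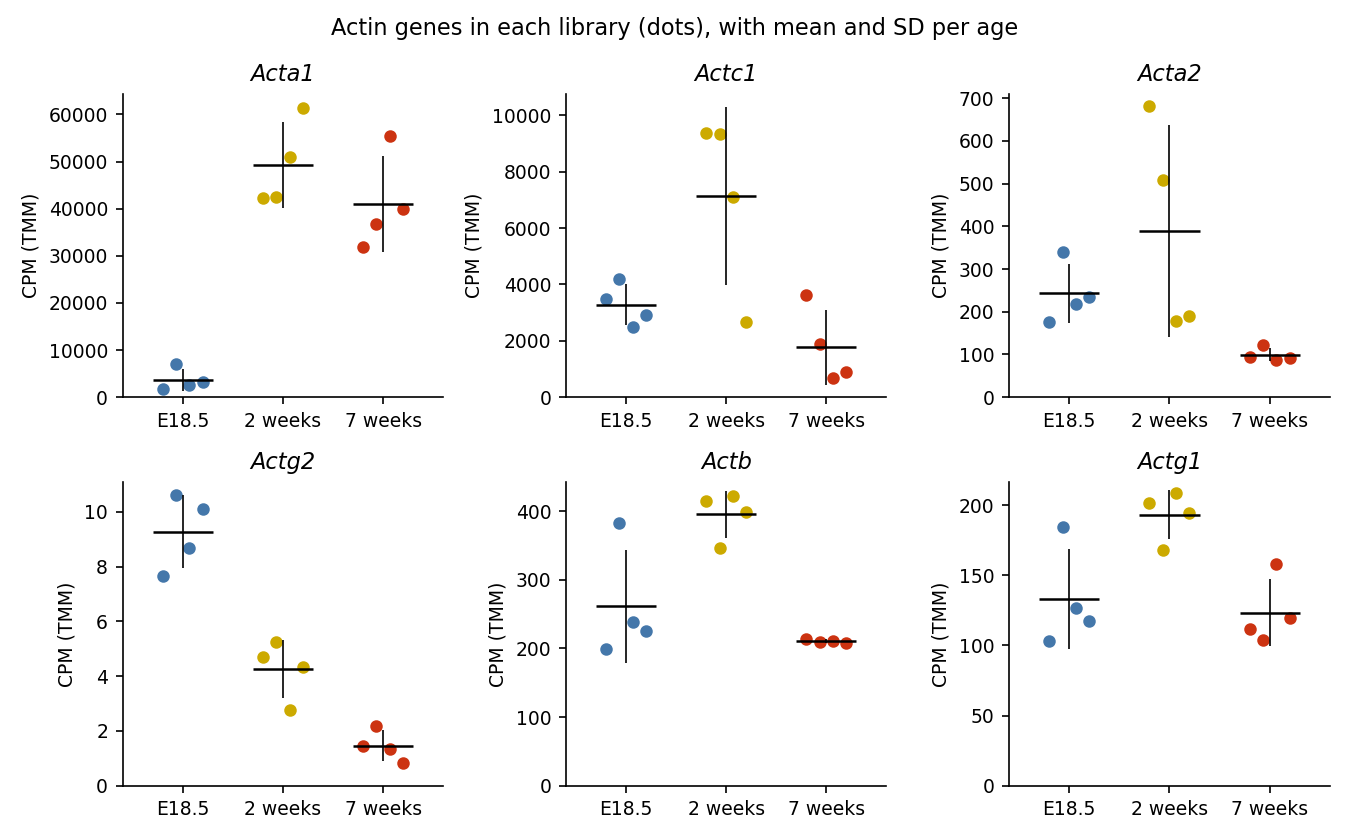
Each panel plots the CPM of 1 actin gene (TMM-scaled, linear axis from 0, ranges differ between panels) in the 12 libraries, as dots in replicate order within each age, with the mean as a bar and the SD as a line (n = 4). *Acta1* stood at 31847 to 61450 CPM in all mice after birth against at most 6942 CPM before, *Actg2* went down at each step, and the others were lowest or near their lowest at 7 wks.

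The exchange shows most directly as a ratio of counts within a library, which no library-wide scaling factor can alter. Removal of the GC trend works gene by gene and can alter it, and it was not applied to these ratios. *Acta1* has 57.3% GC and *Actc1* 45.9%. With the GC trend removed, the change of *Actc1* to 2 wks was log2 1.38 instead of 1.12, while that of *Acta1* was smaller, as given above. *Acta1* had 0.520, 1.65, 1.05 and 1.08 reads for each *Actc1* read at E18.5. The ratios were 4.51, 4.55, 7.16 and 23.0 at 2 wks and 8.82, 19.6, 81.3 and 44.4 at 7 wks. The mean log2 ratio went from -0.01 ± 0.69 (SD, n = 4) to 2.93 ± 1.11 and 4.81 ± 1.40. The step to 2 wks was 7.67-fold and higher in 16 of 16 pairs of mice (p = 0.0286 by an exact permutation test, two-sided, which is the smallest p that 4 against 4 mice allow, adjusted p = 0.0429 over 12 tests). The step from 2 to 7 wks was 3.69-fold and higher in 14 of 16 pairs, and it did not pass (exact p = 0.0857, adjusted p = 0.114). From E18.5 to 7 wks the ratio was 28.3-fold higher in 16 of 16 pairs (exact p = 0.0286, adjusted p = 0.0429).

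Mice of the same age differed widely in this ratio after birth. At 2 wks it spanned 4.51 to 23.0 and at 7 wks 8.82 to 81.3. Within each of these ages the 4 mice ranked in opposite order for the genes, so that the mouse with the most *Acta1* had the least *Actc1*. At 2 wks replicate 4 had 61450 CPM of *Acta1* and 2668 CPM of *Actc1*, and at 7 wks replicate 3 had 55511 and 683 CPM. At E18.5 the order was not opposite, since replicate 2 was highest in both. With 4 mice at each age this order is a description and was not tested. The summed level of both genes ran from 5123 to 11143 CPM at E18.5, from 51671 to 64107 CPM at 2 wks and from 35455 to 56187 CPM at 7 wks.

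**Figure D2:**
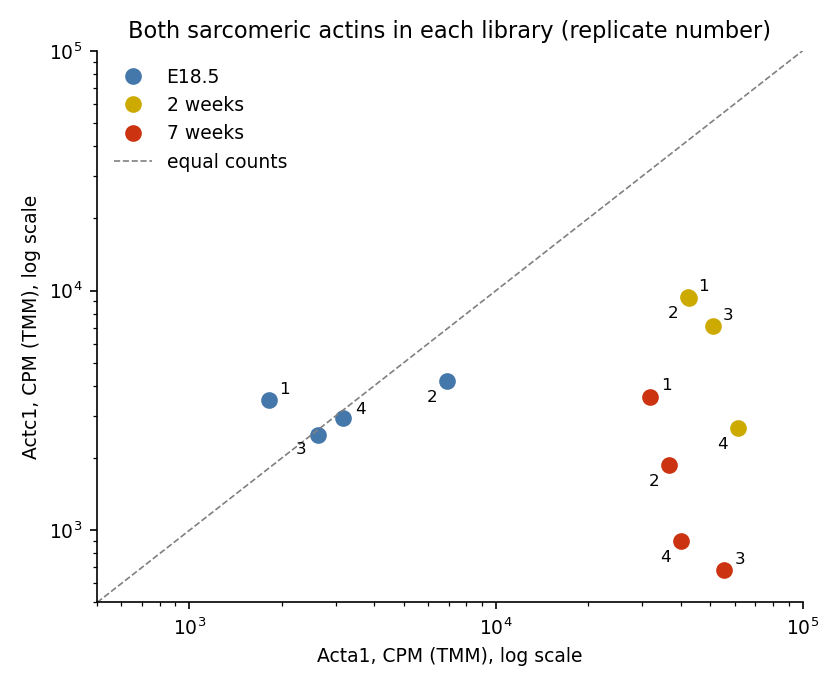
*Acta1* (x axis) against *Actc1* (y axis) in CPM on log axes, 1 point per library with its replicate number and the age as colour, and a dashed line where counts are equal. The 4 libraries of E18.5 lie around the line, with ratios of 0.520 to 1.65, and within 2 wks and within 7 wks the points run downwards to the right.

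Other heart genes that fetal skeletal muscle uses were set beside *Actc1*. Of 10 such genes, 7 fell to 2 wks and 1 rose, beside 34.2% lower and 31.5% higher of all genes tested, and their median log2 change was -2.69 against -0.09 for all genes. *Tnnt2*, cardiac troponin T, fell by 3.62 on the log2 scale (adjusted p = 1.16e-06). *Casq2*, the cardiac calsequestrin that stores calcium, fell by 3.28 (adjusted p = 3.74e-06) and *Myl4*, the atrial and embryonic myosin light chain, by 3.25 (adjusted p = 6.66e-06). The exception that rose was *Myl3*, a ventricular and slow-fibre light chain (log2 1.30, adjusted p = 0.0206), and *Myl2* (log2 -0.44) and *Ankrd1* (log2 0.65) were not called. On total counts 8 of the 10 were called, with 0 of them higher (edgeR). After 2 wks 6 of the 10 fell, beside 13.9% of all genes, among them *Tnni1* of slow fibres (log2 -2.02, adjusted p = 0.00453), and the list's median log2 change was -0.93 against -0.03 for all genes. Without 2 wks replicate 1 only 3 were called in that step. *Actc1* at log2 1.12 and then -2.01 is set beside these values, and the difference between *Actc1* and the list was not tested.

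**Figure D3:**
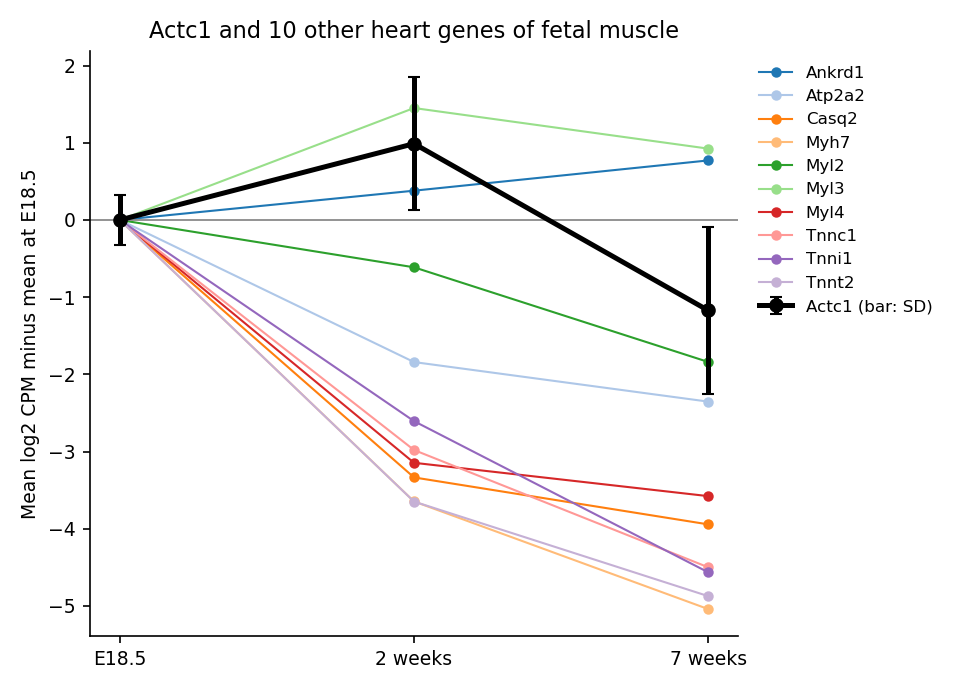
Mean log2 CPM of each gene (n = 4 libraries per age) minus its own mean at E18.5, plotted at the 3 ages, with *Actc1* in black with its SD. At 2 wks 7 of the other genes lie well below 0, while *Actc1* lies above 0 and comes below it only at 7 wks.

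Markers of heart muscle were low. The 8 of them summed to at most 31.0 CPM in a fetus, 19.8 CPM in a mouse of 2 wks and 10.3 CPM in a mouse of 7 wks, and 4 of the 8 had enough reads to be tested. *Nkx2-5*, a defining cardiac factor, had 0 counts in all 12 libraries, which allows up to 3 counts in a library, or 0.0602 CPM in the shallowest. The atrial light chain *Myl7* had at most 8 counts and the natriuretic peptide genes *Nppa* and *Nppb* at most 17 and 25. *Myh6*, the α-myosin heavy chain of heart, was present, with 212 to 4039 counts in a library and up to 23.4 CPM in a fetus, and at most 0.933% of the *Actc1* count. *Tnni3*, cardiac troponin I, had 21 to 192 counts. After TMM scaling it rose to 2 wks (log2 0.86, adjusted p = 0.0216) and fell after it (log2 -1.36, adjusted p = 0.00648). The rise was not seen on total counts, where its mean was 1.238 ± 0.440 CPM (SD) at E18.5 and 1.198 ± 0.429 CPM at 2 wks. Of the 4 tested, 1 was called higher to 2 wks and 2 lower, beside 31.5% and 34.2% of all genes, with a median log2 change of -2.68. After 2 wks 0 were called higher and 1 lower, beside 13.5% and 13.9% of all genes. *Mybpc3* had 31 to 73 counts at E18.5 and at most 2 in any library after birth.

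Both smooth muscle actins were lower at 7 wks than at E18.5, and *Actg2* fell at each step. *Actg2* (chromosome 6, 83512909 to 83536251, minus strand) is the rarest member, with 50 to 2025 counts in a library. It had 7.67, 10.6, 8.69 and 10.1 CPM at E18.5, 4.71, 5.24, 2.78 and 4.34 CPM at 2 wks and 1.46, 2.19, 1.35 and 0.822 CPM at 7 wks. The 3 ages did not overlap. *Actg2* fell 2.17-fold to 2 wks (log2 -1.12, SE 0.27, adjusted p = 0.00224) and 2.93-fold after it (log2 -1.55, SE 0.28, adjusted p = 0.00145), and both falls kept their sign and call under total count, upper-quartile and GC-corrected scaling. The steps did not differ detectably from each other (log2 difference 0.43, SE 0.46, adjusted p = 0.48).

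*Acta2* (chromosome 19, 34240336 to 34255585, minus strand) took a different course. It had 177, 341, 219 and 235 CPM at E18.5 and 681, 508, 177 and 190 CPM at 2 wks, so that at 2 wks 2 mice were high and 2 were within the fetal range. At 7 wks the 4 mice had 94.2, 122.6, 88.1 and 92.1 CPM, below every younger mouse. The change to 2 wks was not called (log2 0.68, SE 0.37, adjusted p = 0.121), but it was without 2 wks replicate 3 (log2 0.93, adjusted p = 0.0313) or replicate 4 (log2 0.92, adjusted p = 0.0385), and its sign turned on total counts (log2 -0.20). After 2 wks *Acta2* fell 3.92-fold (log2 -1.97, SE 0.38, adjusted p = 0.00235), and at 7 wks it was 2.45-fold below E18.5 (log2 -1.29, SE 0.38, adjusted p = 0.00695). Per library *Acta2* had 23.1 to 32.1 reads for each *Actg2* read at E18.5 and 43.9 to 144 at 2 wks, a 3.08-fold step that was higher in 16 of 16 pairs (exact permutation test, p = 0.0286, adjusted p = 0.0429).

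Of 10 markers of smooth muscle and pericytes, 8 rose to 2 wks and 2 were not called, beside 31.5% higher and 34.2% lower of all genes. After 2 wks *Synpo2* rose, *Notch3* fell and 8 were not called, where 13.5% and 13.9% of all genes were called higher and lower. Their summed level was 501 to 687 CPM at E18.5, 1788 to 2080 CPM at 2 wks and 1986 to 2626 CPM at 7 wks. In the 2 mice of 2 wks with high *Acta2* this sum was 1838 and 1788 CPM, against 1970 and 2080 CPM in the others. Markers of myogenic precursor cells, a list of 6, summed to 156 and 133 CPM in the mice with high *Acta2* and to 86.5 and 74.8 CPM in the others. Within that list *Myog*, which encodes myogenin and was singled out after its values were seen, had 91.5 and 68.6 CPM against 38.0 and 35.3 CPM. The precursor sum was 131 to 252 CPM at E18.5 and 26.8 to 41.4 CPM at 7 wks, and none of its 6 genes was at 0 throughout. Other lists parted these mice too. Markers of red blood cells summed to 476 and 755 CPM in the mice with high *Acta2* and to 146 and 148 CPM in the others. Fibroblast, leukocyte and heart marker sums were also higher in the mice with high *Acta2*, while those of endothelium and skeletal fibres overlapped. By a chi-square of counts per degree of freedom, these mice were the closest pair of 2 wks (34.3, against 134 to 366 for other pairs). The part of any list in the *Acta2* result was not tested.

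The cytoplasmic actins *Actb* (chromosome 5, 142903115 to 142907976) and *Actg1* (chromosome 11, 120345687 to 120348495), both on the minus strand, had their highest mean at 2 wks. *Actb* had 199, 382, 239 and 225 CPM at E18.5 and 415, 346, 422 and 399 CPM at 2 wks. At 7 wks the 4 mice lay between 207 and 214 CPM, with an SD of 2.71 CPM, which was the smallest spread relative to its mean of any member at any age (1.29%). *Actg1* had 103, 184, 127 and 117 CPM at E18.5, 202, 168, 209 and 194 CPM at 2 wks and 112, 104, 158 and 120 CPM at 7 wks. The fetus with the highest value, replicate 2, overlapped the range of 2 wks for both genes, and it was also the highest for *Acta1*, *Actc1*, *Acta2* and *Actg2*.

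After TMM scaling *Actb* rose 1.51-fold to 2 wks (log2 0.60, SE 0.19, adjusted p = 0.0115) and fell 1.88-fold after it (log2 -0.91, SE 0.19, adjusted p = 0.00326). *Actg1* rose 1.45-fold (log2 0.54, SE 0.19, adjusted p = 0.0223) and then fell 1.57-fold (log2 -0.65, SE 0.19, adjusted p = 0.0221). These rises turn into lower values on total counts (log2 -0.33 for *Actb* and -0.39 for *Actg1*), and for *Actg1* also once the trend with GC content is removed (log2 -0.24). Both falls after 2 wks kept their sign and call under the scalings shown in the plot of fold changes by scaling. The calls of *Actg1* were fragile to single mice. Its rise was lost without E18.5 replicate 1, 3 or 4 or 2 wks replicate 3 (adjusted p = 0.0605, 0.0528, 0.0596 and 0.0522), and its fall without 2 wks replicate 1 or 3 or 7 wks replicate 1, 2 or 4 (adjusted p = 0.0523, 0.0556, 0.0586, 0.0733 and 0.0581).

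**Figure D4:**
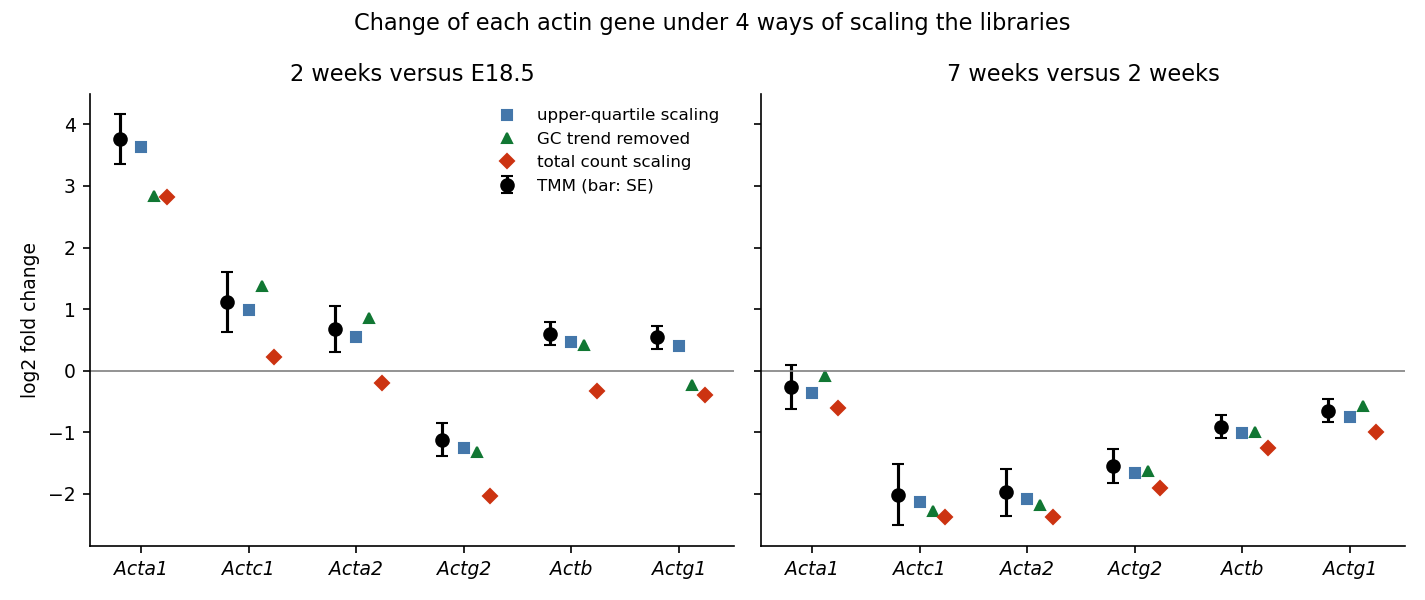
Log2 fold change of the 6 genes to 2 wks (left) and after 2 wks (right) by TMM with its SE, upper-quartile scaling, removal of the GC trend and total count scaling. To 2 wks *Acta2*, *Actb* and *Actg1* lie above 0 with TMM and below 0 on total counts (*Actg1* also with the GC trend removed), while after 2 wks every marker of every gene lies below 0.

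The ratio between the cytoplasmic actins was measured within each library. *Actg1* had 0.518, 0.482, 0.531 and 0.521 reads for each *Actb* read at E18.5, 0.486, 0.486, 0.494 and 0.487 at 2 wks and 0.522, 0.496, 0.751 and 0.577 at 7 wks. The ratio was 1.18-fold higher at 7 than at 2 wks in 16 of 16 pairs (exact permutation test, p = 0.0286, adjusted p = 0.0429), and replicate 3 at 7 wks, at 0.751, stood highest. Without that mouse the log2 difference went from 0.24 to 0.12. These ratios carry the uncertainty of the *Actg1* reads described above. They are also open to the GC trend. With it removed, the log2 change from E18.5 to 7 wks was -0.80 for *Actg1* and -0.58 for *Actb*. These values span both steps and do not show what the ratio did from 2 to 7 wks. Relative to the cytoplasmic pair, the sarcomeric pair rose at each step. After 2 wks the estimates of both genes of each pair were below 0. Those of *Actc1* (log2 -2.01), *Actb* and *Actg1* were called, and that of *Acta1* was not (log2 -0.26, edgeR adjusted p = 0.624). The sarcomeric pair had 14.04 to 19.7 reads for each cytoplasmic read in the fetuses, 83.8 to 108 in the mice of 2 wks and 109 to 153 in those of 7 wks. The steps of 5.59-fold and 1.32-fold were each higher in 16 of 16 pairs (exact permutation tests, p = 0.0286 and adjusted p = 0.0429 for each).

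Set against all genes, 3 of the 6 members were called higher at 2 wks than at E18.5 and 1 was called lower, where 31.5% and 34.2% of all genes were. On total counts 1 was called higher (*Acta1*) and 1 lower (*Actg2*). From 2 to 7 wks 5 members were called lower and 0 higher by edgeR, against 13.9% and 13.5% of all genes. All 6 estimates were below 0 in that step, and DESeq2 also called 5 lower. Between E18.5 and 7 wks 1 was called higher and 2 lower, where the shares were 34.3% and 37.1%, and on total counts 5 were called lower. For 5 members the change to 2 wks was significantly above the change after it, which held for 21.6% of all genes, while the opposite held for 16.8%.

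As a share of the summed actin level per kilobase of main transcript, *Acta1* had 62.1% ± 10.2 (SD, n = 4) before birth, then 92.2% ± 3.71 at 2 wks, and finally 97.0% ± 2.05 at 7 wks. *Actc1* had 29.0% ± 9.31, 6.405% ± 3.32 and 2.15% ± 1.92. The order at E18.5 was *Acta1*, *Actc1*, *Actb*, *Acta2*, *Actg1* and *Actg2*, with *Actb* at 4.21% ± 0.642 and *Acta2* at 2.70% ± 0.412. The order was the same at 2 wks, but *Actb* at 0.645% ± 0.087, *Acta2* at 0.463% ± 0.333 and *Actg1* at 0.275% ± 0.037 did not separate there, since the range of *Acta2* covered those of the other two. At 7 wks *Acta2* at 0.146% ± 0.042 came after *Actg1* at 0.221% ± 0.019. These shares rest on transcript lengths of 1648 bases for *Acta1* and 3645 for *Actc1*. Without dividing by length the fetal shares were equal within their spread, 45.5% ± 10.8 for *Acta1* and 45.7% ± 10.6 for *Actc1*, and *Actc1* had 12.9% ± 6.42 at 2 wks and 4.56% ± 3.97 at 7 wks.

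**Figure D5:**
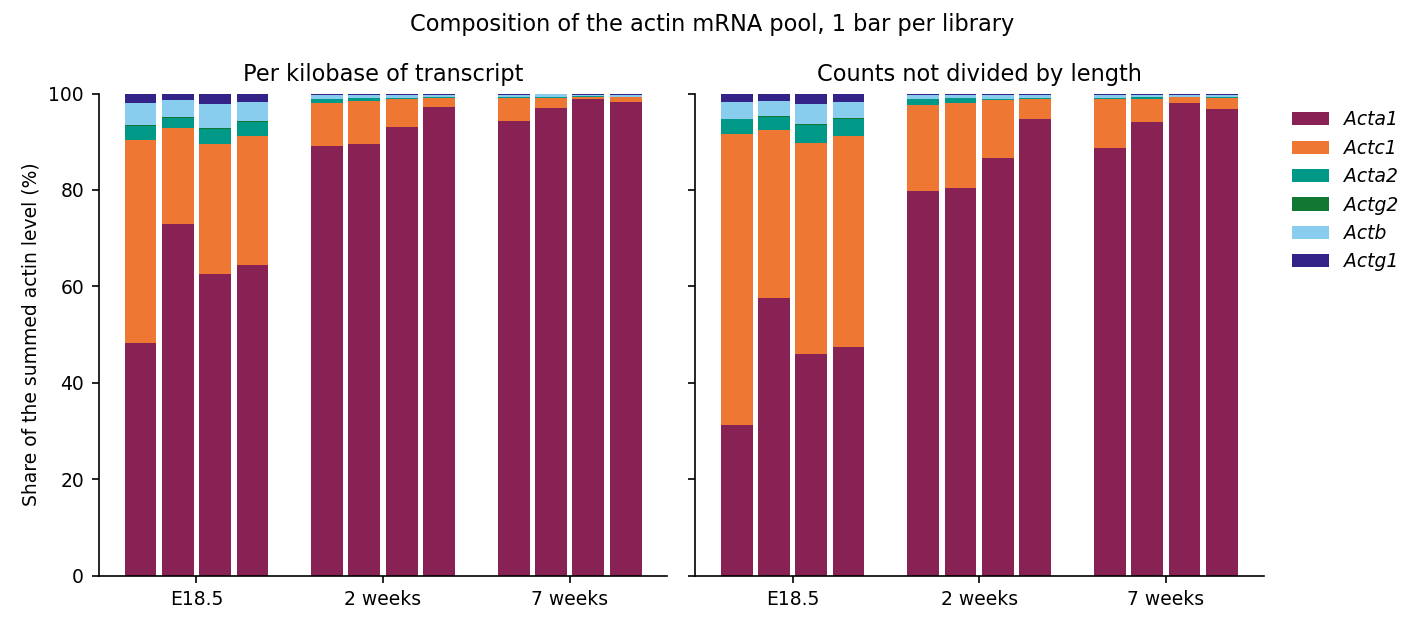
Share of each of the 6 genes in the summed actin level of each library, in percent, per kilobase of transcript (left) and as counts not divided by length (right), with 4 bars per age in replicate order. *Actc1* takes 19.97% to 42.0% of the fetal level per kilobase and 0.550% to 4.83% at 7 wks.

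Of 21 genes for assembly of muscle thin filaments, 17 rose to 2 wks, 2 fell and 2 were not called, beside 31.5% higher and 34.2% lower of all genes, with a median log2 change of 1.55 against -0.09 for all genes. On total counts 13 were called, 9 of them higher. *Actn3*, the Z-disc α-actinin of fast fibres, rose by log2 5.29 (adjusted p = 2.45e-08). *Nrap*, which takes part in assembling young myofibrils, rose by log2 3.32 (adjusted p = 3.73e-06), and *Xirp2*, an actin-binding repeat protein, by log2 3.29 (adjusted p = 4.82e-06). The capping subunit *Capza1* fell by 1.52 (adjusted p = 4.79e-05) and *Wdr1*, a partner of cofilin in taking filaments apart, by 0.70 (adjusted p = 0.00281). After 2 wks 7 rose, 1 fell and 13 were not called, with *Xirp2* (log2 1.39, adjusted p = 0.00852) and *Lmod2*, a leiomodin that nucleates and lengthens thin filaments (log2 1.21, adjusted p = 0.00154), in front. The 8 calls of that step fell to 3 on total counts, and to between 3 and 5 without 2 wks replicate 1 or 2 or 7 wks replicate 1, 2 or 4.

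Of 27 genes for general actin turnover, 9 rose to 2 wks, 10 fell and 8 were not called, close to the 31.5% and 34.2% of all genes. Afterwards 2 rose, 11 fell and 14 were not called, where 13.5% of all genes rose and 13.9% fell. On total counts 21 were called to 2 wks, 3 of them higher, and 19 after it, 0 of them higher (edgeR). That scaling moves the median log2 change of all genes by -0.93 and -0.35 in these steps. *Tmsb10*, a thymosin that holds actin monomers, fell by 2.44 on the log2 scale after 2 wks (adjusted p = 1.95e-05). *Fscn1*, the bundler fascin, fell by 2.27 (adjusted p = 0.000177) and *Cfl1*, the non-muscle cofilin, by 1.41 (adjusted p = 3.53e-05). This is the step in which *Actb* and *Actg1* fell too.

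Among 12 regulators of the SRF pathway, 6 rose to 2 wks, 4 fell and 2 were not called, where 31.5% of all genes rose and 34.2% fell, and on total counts 3 of 9 calls were higher. *Srf* itself rose by log2 1.12 (adjusted p = 0.00303), *Mrtfa* by 1.44 (adjusted p = 0.000184) and *Mical2*, which oxidises actin, by 1.81 (adjusted p = 4.28e-06). Scaled to total counts, the mean of *Srf* moved little, from 29.7 ± 15.2 CPM (SD) to 33.8 ± 2.11 CPM. *Mrtfa* then went from 31.2 to 44.0 CPM and *Mical2* from 43.6 to 81.6 CPM. *Abra*, also called STARS, a striated muscle activator of this pathway, rose by log2 4.01 (adjusted p = 9.98e-09). *Fhl2*, a LIM protein that binds SRF, fell by 1.65 (adjusted p = 7.51e-05), and again after 2 wks by 1.25 (adjusted p = 0.0033). It was the only regulator called in that step with TMM, where total count scaling and removal of the GC trend each called 3.

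Genes for folding and maturation of actin went both ways. The list of 18 had 6 risers and 4 fallers to 2 wks, and 8 were not called, where 31.5% of all genes rose and 34.2% fell. On total counts 16 were called, 4 of them higher. The fallers were the CCT chaperonin subunits *Tcp1*, *Cct4*, *Cct6a* and *Cct8*, by 0.45 to 0.62 on the log2 scale. The risers were 4 subunits of prefoldin, which hands actin to CCT, led by *Pfdn1* (log2 2.05, adjusted p = 3.7e-07), and the enzymes *Naa80* (log2 2.64, adjusted p = 2.25e-05), which acetylates the end of mature actin, and *Actmap* (log2 1.42, adjusted p = 1.81e-06), which trims it. *Setd3*, the methyltransferase of an actin histidine, rose after 2 wks (log2 0.75, adjusted p = 0.000752) but not before (log2 0.14, adjusted p = 0.314), and the steps differed (log2 difference -0.60, adjusted p = 0.0362). Its mean on total counts went from 182 CPM at E18.5 down to 105 CPM at 2 wks and then to 139 CPM at 7 wks. *Pdcl3* rose after 2 wks too (log2 0.42, adjusted p = 0.0196), and the other 16 were not called.

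By the shape of their profiles over the 12 libraries, the cytoplasmic actins were each other's near neighbours, with a root mean square difference of 0.171 log2 units, and no other pair of members came closer than 0.687. The likeness was computed against 8947 genes, after centring each log2 profile on its own mean. Nearest to *Acta1* were *Pgam2*, a muscle enzyme of glycolysis (0.167), *Ckm*, muscle creatine kinase (0.202), and *Slc35e4* (0.225). Nothing came close to *Actc1*, whose nearest genes were *Adamts20* (0.463), *Col15a1* (0.567) and *C1qtnf6* (0.618). *Acta2* had *Gamt*, an enzyme of creatine synthesis (0.347), *Eno1* (0.400) and *Plxnb1* (0.408), and *Actg2* had *Fras1* (0.363), *Mmp14* (0.375) and *Csrp2* (0.375). For *Actb* they included *Col5a3* (0.150) and *Cerk* (0.155), and for *Actg1* they were *Dazap1* (0.119), *Ino80e* (0.138) and *Nans* (0.139). These figures describe likeness in 12 libraries of 3 ages, which share their scaling.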

How the data were processed

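RNA from TA muscle of 12 wild-type mice was prepared with a TruSeq Stranded mRNA kit and sequenced as paired-end 100-base reads. The authors deposited raw read counts per Ensembl gene. The submitters' processing notes list bcl2fastq 2.17.1.14, cutadapt 1.10, STAR 2.5.3a and HTSeq 0.6.1p1 with build mm10, whereas the methods of the paper name GRCm39. The strand setting is not given in the sources used here, so reads of a gene and its antisense partner cannot be told apart (*Gm29773* opposite *Acta1* held at most 0.635% of its count, *0610009L18Rik* opposite *Actg1* at most 8.06%). Symbols, transcript lengths and GC content come from GENCODE vM39, in which 51477 identifiers matched, and gene positions and promoters from RefSeq on GRCm38.p6.

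Counts were filtered with filterByExpr, which removed 36174 genes, scaled by TMM and fitted in edgeR 4.0.16 (R 4.3.3) over all 12 libraries with age as the only term, where the methods of the paper name Cuffdiff, since the deposited unit is counts per gene. The biological coefficient of variation was 0.279. Tests ran on simulated counts first. Ratios were tested by two-sided exact permutation, with Benjamini-Hochberg adjustment over 12 tests. Sequences were handled with biopython 1.88 under Python 3.11.15. Nothing in the labels says how the mice relate. The p-values set differences between ages against the spread between these mice. A litter or batch shared by the mice of an age could not be told apart from age. No pair of libraries agreed within sampling noise. The members and all lists were chosen with earlier results of these data known. Genes were named by these rules: every member, list genes among the 3 largest called rises or falls or whose role called for it, and the 3 nearest profiles of each member among genes whose mean log2 CPM reached 3, of which 1 is not reported here. DESeq2 1.42.0 and other scalings, filters and left-out libraries were alternatives.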

Additional observations from a re-analysis of the deposited data

How the results depend on the processing

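The rise of *Acta1* to 2 wks kept its call in all 22 alternatives (log2 2.82 to 4.28), and of 522 recomputed fold changes of members 470 kept direction and call. Total count scaling left 2 members called to 2 wks and called 6 between E18.5 and 7 wks. It turned *Acta2* (-0.20), *Actb* (-0.33) and *Actg1* (-0.39) to 2 wks and the difference between steps of *Actg2* (-0.12), and it gave 16 called folding genes to 2 wks and 3 SRF regulators and 3 thin filament genes after it. Upper-quartile scaling called 5 members between E18.5 and 7 wks, 4 thin filament genes and 1 folding gene after 2 wks, and no filter also left 1 folding gene. With the GC trend removed 5 members were called between E18.5 and 7 wks and 3 SRF regulators after 2 wks, and *Actg1* turned to -0.24 to 2 wks. The cause was not tested.

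Asking for a log2 change beyond 1, a stricter test by construction, left 1 member to 2 wks, 0 after it (edgeR) and 3 for the difference of steps. It left 5 SRF, 10 thin filament, 3 turnover and 4 folding genes to 2 wks, and 0 SRF, 0 thin filament, 2 turnover, 0 folding and 0 heart genes after it. The share of all genes is not given for any alternative, so such counts are not a result about the members or the lists.

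Leaving out 1 mouse gave 3 to 9 thin filament, 3 to 6 heart, 1 to 3 folding and 1 to 2 SRF genes after 2 wks. Log2 ratios to 2 wks ran from 2.41 to 3.19 for *Acta1* to *Actc1*, 1.34 to 1.91 for *Acta2* to *Actg2*, -0.100 to -0.0534 for *Actg1* to *Actb* and 2.39 to 2.55 for the sarcomeric to the cytoplasmic pair. After 2 wks they ran from 0.12 to 0.32 for *Actg1* to *Actb*, 0.31 to 0.47 for the pairs and -0.43 to 0.14 for *Acta2* to *Actg2*, which turned without 2 wks replicate 1. *Actg1* between E18.5 and 7 wks turned to 0.093 without E18.5 replicate 2. Of the exact permutation tests of ratios with 3 against 4 mice, 68 kept direction and call and 26 lost their call. A further 1 gained a call and 1 turned in direction.

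With the replicate block, *Actc1* was called to 2 wks (log2 0.99, edgeR adjusted p = 0.0312) and between E18.5 and 7 wks (-1.15, adjusted p = 0.0147), which changed no other call of a member. Correlations of equal numbers ran from -0.14 to 0.28. Unequal numbers were not set beside them, so these values cannot show whether the numbers pair mice. Blocked ratio tests cannot go below p = 0.125 (exact). *Actg2* had the lowest depth of the members, with as few as 50 counts.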

Other observations

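*Tbx5*, a T-box factor of heart and forelimb that stands in the heart marker list, had 3.76, 6.01, 2.67 and 2.83 CPM in the 4 libraries of E18.5 and at most 8 counts in any library after birth. *Gm29773*, annotated opposite *Acta1*, averaged 11.4 CPM at E18.5, 26.6 CPM at 2 wks and 29.4 CPM at 7 wks. None of the 30 sets of 4 mice examined (6 genes and 4 ratios at 3 ages) held a mouse past the 95% limit of Dixon's test, where about 1.5 would be past it by chance.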
